A study of Homo sapiens with 22 samples.

Results

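The loci of MYC with its neighbour PVT1, of MYCL, of CCND1 and of CCND2 were examined in peak lists from human prostate cancer cell lines. The rule took every region of every deposited list that lay in a gene body, as drawn by GENCODE on hg19, or within 200 kb of it. It gave 4 windows for 5 genes, and these held 1030 of the 871377 regions in the 22 lists. The windows were chr8:128547680-129399347 for MYC and PVT1 (852 kb), chr1:40161100-40567928 for MYCL (407 kb), chr11:69255924-69669242 for CCND1 (413 kb) and chr12:4178937-4614519 for CCND2 (436 kb). The assays were chromatin immunoprecipitation with sequencing (ChIP-seq) for the forkhead factor FOXA2, for the AP-1 subunits JUN and FOSL1 and for the histone marks H3K27ac and H3K4me2, and ATAC-seq, which maps open chromatin by transposase insertion. Of the lines, LNCaP stands for adenocarcinoma with an active androgen receptor, PC3 for disease that has lost the receptor without neuroendocrine features, and NCI-H660 for neuroendocrine disease. FOXA2 lists came from PC3 cells given vehicle, the LSD1 inhibitor ORY-1001 (10 µM) or the LSD1 inhibitor C12 (0.5 µM), and from NCI-H660 cells given vehicle or ORY-1001 (10 µM), each for 4 h. Another 2 FOXA2 lists came from PC3 cells given vehicle. The labels do not name their antibody or say whether the cells were a separate culture. JUN lists came from PC3 and NCI-H660 cells transfected with a control siRNA (siNC) or an siRNA against FOXA2 (siFOXA2), and FOSL1 lists from PC3 cells with the same siRNAs. LNCaP gave JUN lists after siNC or siFOXA1, JUN and FOXA2 lists from a line made to express FOXA2 (FOXA2OE), and a JUN list from a line with the mutant FOXA2K265R, in which a lysine is replaced by arginine. Both lines were made by infection with lentivirus and selection in puromycin, and the label of the mutant names FOXA2OE as its cell line. ATAC-seq lists came from PC3 and NCI-H660, the H3K27ac list from PC3 and the H3K4me2 list from NCI-H660. Apart from the 2 additional FOXA2 lists of PC3, each group had 1 list, so no difference could be set against replicate spread and no test was made.

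MYC encodes a transcription factor that drives growth and entry into the cell cycle, and MYCL encodes its close relative, known from small cell and other neuroendocrine tumours. PVT1 is a long noncoding RNA gene just downstream of MYC whose body carries many enhancers that contact the MYC promoter. CCND1 and CCND2 encode D-type cyclins, which activate the kinases CDK4 and CDK6 and so lead to phosphorylation of the retinoblastoma protein. FOXA2 is a pioneer factor that binds forkhead motifs in closed chromatin, JUN and FOSL1 pair as the AP-1 dimer on TGACTCA-type sites, and H3K27ac and H3K4me2 mark active and primed regulatory DNA. LSD1 is a lysine demethylase.

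Outside the MYC and PVT1 locus the windows held few FOXA2 or JUN regions, and the sequences at the centres of 5 of them are shown because they differ in the motifs they hold. The first was the FOXA2 and JUN region downstream of CCND1, the second the highest-scoring JUN region of that locus, the next 2 came from the MYCL locus, and the last was the JUN region inside CCND2. Each line gives 201 bp of the hg19 plus strand, 5′ to 3′, around the centre of the region. Capitals mark forkhead matches (TNTTTNN with A or G as second and sixth letters and C or T as last) and AP-1 matches (TGACTCA or TGAGTCA), searched on both strands, and neighbouring matches can share letters.
CCND1 downstream, PC3 FOXA2, chr11:69469651-69469851: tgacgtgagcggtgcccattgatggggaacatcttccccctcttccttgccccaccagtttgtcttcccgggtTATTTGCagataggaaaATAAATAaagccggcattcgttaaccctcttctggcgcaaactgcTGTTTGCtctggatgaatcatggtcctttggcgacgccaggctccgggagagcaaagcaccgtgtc
CCND1 upstream, PC3 JUN, chr11:69275408-69275608: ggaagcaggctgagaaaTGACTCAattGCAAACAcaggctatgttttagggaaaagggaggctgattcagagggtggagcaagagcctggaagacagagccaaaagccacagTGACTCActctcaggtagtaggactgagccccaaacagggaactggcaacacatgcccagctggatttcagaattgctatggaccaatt
MYCL downstream, NCI-H660 FOXA2, chr1:40358252-40358452: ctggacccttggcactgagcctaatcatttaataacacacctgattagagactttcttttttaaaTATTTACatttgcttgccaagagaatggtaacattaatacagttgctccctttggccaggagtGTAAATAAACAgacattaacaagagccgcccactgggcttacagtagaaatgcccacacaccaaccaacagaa
MYCL upstream, PC3 JUN, chr1:40480936-40481136: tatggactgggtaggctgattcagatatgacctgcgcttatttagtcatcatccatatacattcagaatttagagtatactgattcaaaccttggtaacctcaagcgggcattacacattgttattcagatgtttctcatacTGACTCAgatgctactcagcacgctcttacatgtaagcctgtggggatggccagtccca
CCND2 intron, NCI-H660 JUN, chr12:4386255-4386455: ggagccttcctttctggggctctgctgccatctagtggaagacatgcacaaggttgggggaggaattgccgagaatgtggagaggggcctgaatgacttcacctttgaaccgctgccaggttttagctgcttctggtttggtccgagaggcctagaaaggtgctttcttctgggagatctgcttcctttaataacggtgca
The CCND1 downstream sequence held 3 forkhead matches and no AP-1 match, although JUN was called there too. The CCND1 upstream sequence held 2 AP-1 matches and 1 forkhead match. The MYCL downstream sequence held 3 forkhead matches, and the MYCL upstream sequence of PC3 JUN held 1 AP-1 match. No match to either motif stood in the CCND2 sequence.

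The lists differed widely in size, from 1538 regions (PC3 FOSL1 after siFOXA2) to 210960 (PC3 ATAC), and this alone can set how many regions a locus holds. PC3 had 24038 FOXA2 regions with vehicle and 23890 JUN regions with siNC, and NCI-H660 had 11886 and 18401. Read depths were not given, so the depth behind each list is unknown. The JUN lists of PC3 and NCI-H660 carry different folder names, and so do their ATAC lists. In PC3 the FOXA2 vehicle, JUN and FOSL1 lists also differ in folder name. What the folders stand for is not given, and it cannot be told apart from line or target in these comparisons. Scores are those of the deposited peak files, where a higher score stands for a more confident call, with 13 as the lowest value in most lists. They grow with depth, so a score is compared with others of its own list unless stated. Promoters of the neuroendocrine genes INSM1, CHGA, SYP and NCAM1 were accessible and carried H3K4me2 in NCI-H660. In PC3 only that of CHGA had no ATAC region, while those of SYP (score 1528), NCAM1 (112) and INSM1 (43) had one. The SYP promoter also carried H3K27ac in PC3 (291). Of these genes, only CHGA thus set the lines apart by the presence of an ATAC region. No place in the 4 loci was among those called in at least 17 of the 22 lists.

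FOXA2, JUN and FOSL1 regions were crowded into the MYC and PVT1 locus, and the other loci had few or none. PC3 had 29 FOXA2 regions in the 4 loci, of which 26 lay in the MYC and PVT1 locus and 1 in each of the others. NCI-H660 had 17 FOXA2 regions, of which 13 lay in the MYC and PVT1 locus, 4 in the MYCL locus and none at CCND1 or CCND2. A FOXA2 region was thus present in all 4 windows in PC3, beside 85.8% of the windows of protein-coding genes, and in 2 of the 4 in NCI-H660, beside 71.1%. The MYC and PVT1 locus held 30 of 34 PC3 JUN regions, 20 of 25 NCI-H660 JUN regions and 11 of 12 PC3 FOSL1 regions, both JUN lists being those of siNC cells.

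Measured as regions per kb against the whole genome, the MYC and PVT1 locus was 3.63-fold denser in PC3 FOXA2 regions and 3.67-fold denser in NCI-H660 FOXA2 regions. For comparison, windows drawn in the same way around all 20163 protein-coding genes reached that density in 0.694% of cases in the PC3 list and in 0.903% in that of NCI-H660. PC3 JUN was 4.21-fold denser (0.640% of gene windows at least as dense), NCI-H660 JUN 3.65-fold (3.01%) and PC3 FOSL1 9.61-fold (0.288%). The ATAC density was lower than those of the factors, at 2.15-fold in PC3 (12.8% of gene windows) and 2.01-fold in NCI-H660 (17.1%). The marks were close to ATAC, at 2.26-fold for H3K27ac in PC3 (15.9%) and 1.96-fold for H3K4me2 in NCI-H660 (35.7%). H3K27ac covered 66.4 kb of the window and H3K4me2 36.7 kb. MYC is the only protein-coding gene in this window, and PVT1 accounts for much of its length.

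**Figure D1:**
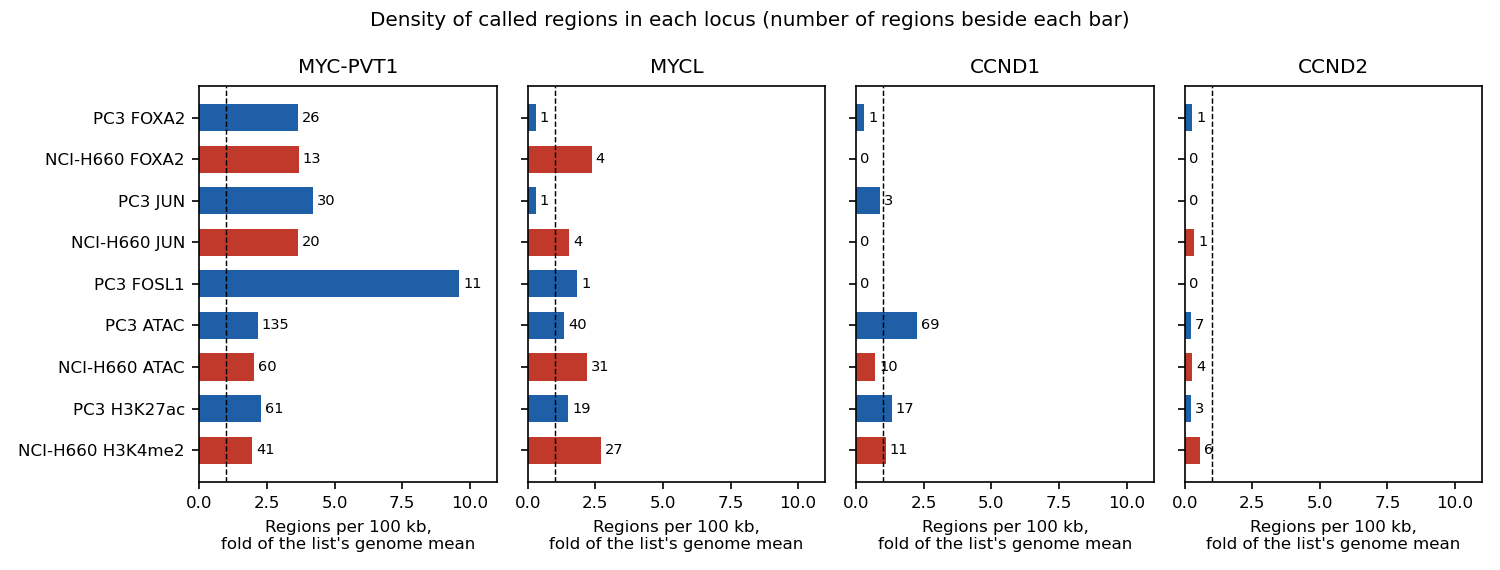
Density of regions in each of the 4 loci, as regions per 100 kb divided by the mean of the whole genome (dashed line at the genome mean), with the number of regions beside each bar, for the FOXA2, JUN, FOSL1, ATAC and histone mark lists of untreated or control cells. The MYC and PVT1 locus was the densest of the 4 for every factor, with PC3 FOSL1 at 9.61-fold, whereas CCND2 lay below the genome average for ATAC in both lines (0.218 and 0.263).

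The other loci parted from MYC and from each other. MYCL was denser than the genome in NCI-H660 FOXA2 regions (2.36-fold, 6.54% of gene windows at least as dense) but not in PC3 FOXA2 regions (0.292-fold, 72.8%). CCND1 was dense in open chromatin in PC3 (2.26-fold, 9.03%) and sparse in NCI-H660 (0.692-fold, 84.6%). CCND2 was among the sparsest gene windows for open chromatin in both lines, since 98.3% of gene windows in PC3 and 95.6% in NCI-H660 were at least as dense.

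In PC3, the strongest FOXA2 regions of the MYC and PVT1 locus were spread over most of the window. Distances are measured from the start of MYC, and negative values lie upstream. The 5 highest scores were 1889 at -149.2 kb (chr8:128598305-128598747), 1803 at 196.4 kb (chr8:128943850-128944337), 1669 at 441.6 kb (chr8:129189058-129189518), 1215 at 579.2 kb (chr8:129326645-129327130) and 907 at 118.7 kb (chr8:128866235-128866591). The upstream one lay in the noncoding gene ENSG00000286266, those at 118.7, 196.4 and 441.6 kb in the body of PVT1, and the one at 579.2 kb between genes. Each additional FOXA2 list of PC3 held 28 of the 29 vehicle regions of the 4 loci (96.6%, 82.8 to 99.4), beside 92.5% and 90.8% of the whole vehicle list. Of the 26 FOXA2 regions in the locus, 14 lay in the body of PVT1, as did 19 of the 30 PC3 JUN regions and 9 of the 11 FOSL1 regions. That body (chr8:128806772-129199347) takes up much of the 852 kb window. These counts alone thus show no preference for PVT1, and none was tested.

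In NCI-H660, a different set of FOXA2 regions led. The highest scores were 928 at 608.7 kb (chr8:129356213-129356569), in the noncoding gene ENSG00000286034, then 757 at 441.6 kb, 741 at 259.8 kb, 453 at 422.0 kb and 444 at -149.2 kb. The region at 259.8 kb lay at an alternative start of PVT1, and PC3 ATAC showed no region there. Among the 13 NCI-H660 regions of the locus, 8 lay in the body of PVT1, which takes up much of the window.

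**Figure D2:**
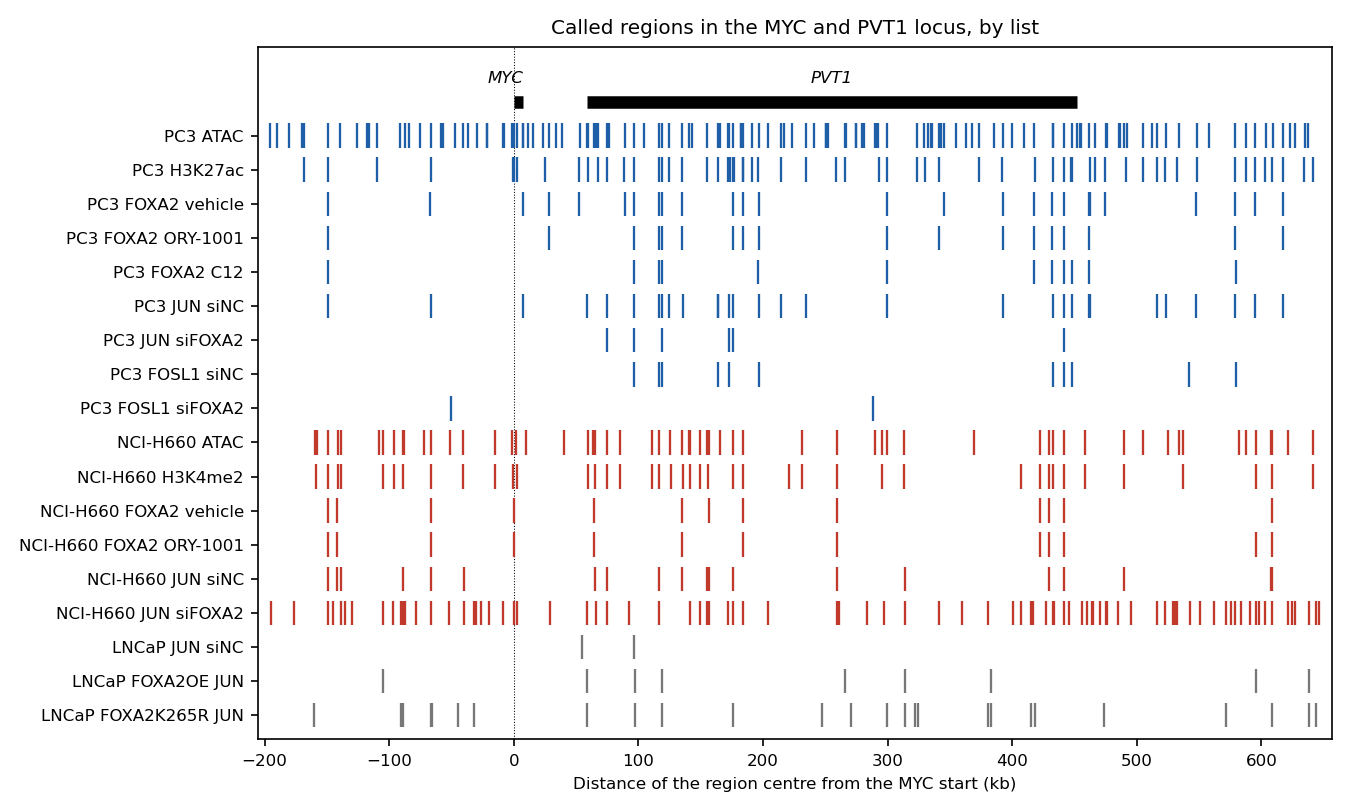
Map of the MYC and PVT1 locus, with the distance from the start of MYC in kb on the horizontal axis and a row of marks for each of 18 lists, without the additional FOXA2 lists of PC3, LNCaP JUN after siFOXA1 and LNCaP FOXA2. Each mark is a region, in blue for PC3, red for NCI-H660 and grey for LNCaP. FOXA2, JUN and FOSL1 marks of PC3 repeat at 7 positions from 96.4 to 579.2 kb, and those of NCI-H660 FOXA2 meet the PC3 vehicle FOXA2 marks at 4 positions.

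Only a small part of these regions was shared by the lines. Of the 29 PC3 FOXA2 regions in the loci, 4 (13.8%, Wilson 95% interval 5.50 to 30.6) overlapped an NCI-H660 FOXA2 region, beside 11.1% over the whole PC3 list. All 4 lay in the MYC and PVT1 locus. They were at -149.2 kb (score 1889 in PC3, 444 in NCI-H660), 135.3 kb (111 and 297), 184.0 kb (228 and 88) and 441.6 kb (1669 and 757). The outermost of them were thus among the strongest of both lines. The one at 135.3 kb scored below the median of the whole list in PC3 (150), and the one at 184.0 kb below that in NCI-H660 (134). Of the 17 NCI-H660 regions, 4 (23.5%, 9.56 to 47.3) were also called in PC3, beside 22.5%. Of the 34 PC3 JUN regions, 7 (20.6%, 10.3 to 36.8) overlapped one of NCI-H660, beside 12.8%.

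Open chromatin was shared unevenly between the loci. Of 251 PC3 ATAC regions in the loci, 65 (25.9%, 20.9 to 31.7) overlapped one of NCI-H660, beside 21.5% for the whole list. The share was 57.5% at MYCL, 42.9% at CCND2, 21.5% at MYC and PVT1 and 14.5% at CCND1. The NCI-H660 FOXA2 places were open in PC3 in 9 of 17 cases (52.9%, 31.0 to 73.8, beside 35.2%), and the PC3 FOXA2 places were open in NCI-H660 in 10 of 29 (34.5%, 19.9 to 52.7, beside 22.6%). Both intervals held the shares of the whole lists.

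By an overlap of at least 1 bp, a larger share of the PC3 FOXA2 regions in the loci than in the whole list met AP-1 and H3K27ac. JUN overlapped 20 of 29 (69.0%, 50.8 to 82.7) beside 44.3%, and FOSL1 overlapped 6 of 29 (20.7%, 9.85 to 38.4) beside 7.24%. H3K27ac overlapped 24 of 29 (82.8%, 65.5 to 92.4) beside 58.7%. Accessibility did not stand out, at 26 of 29 (89.7%, 73.6 to 96.4) beside 89.3%. Where the overlap had to cover 50% of both regions, the shares were 51.7% (34.4 to 68.6) beside 40.7% for JUN, 13.8% (5.50 to 30.6) beside 6.20% for FOSL1 and 3.45% beside 5.14% for H3K27ac, and each interval held the share of the whole list. The H3K27ac regions of the loci were much wider than the FOXA2 regions (median 834 and 358 bp). A FOXA2 region inside one can thus fail this rule, and the value for H3K27ac cannot judge co-occupancy. The first additional FOXA2 list, with 67 regions in the loci, gave a lower JUN share for loci and list alike, 37.3% beside 20.6%. The 5 regions without H3K27ac were those at 7.1, 28.2, 52.0 and 345.1 kb of the MYC locus and the one at CCND2.

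In NCI-H660, JUN overlapped 10 of 17 FOXA2 regions (58.8%, 36.0 to 78.4) beside 36.4%, so that the interval held the share of the whole list at its edge. H3K4me2 overlapped 16 of 17 (94.1%, 73.0 to 99.0) beside 62.7%, and the exception was the region at 156.7 kb in an exon of PVT1. All 17 regions were accessible (81.6 to 100) beside 90.9%. With 50% of both regions overlapping, H3K4me2 fell to 5.88% beside 12.4% and accessibility to 23.5% beside 31.2%, below the whole list. In the loci the median length was 278 bp for FOXA2, 730 bp for H3K4me2 and 549 bp for ATAC. A FOXA2 region inside a much wider region cannot cover 50% of it, so these lower shares cannot judge co-occupancy. Looked at from the mark, 16 of 85 H3K4me2 regions (18.8%, 11.9 to 28.4) held FOXA2, beside 10.8%. In PC3, 33 of 100 H3K27ac regions (33.0%, 24.6 to 42.7) held JUN beside 21.9%, and 11 (11.0%, 6.25 to 18.6) held FOSL1 beside 2.76%. Of the 11 acetylated regions with FOSL1, 10 were in the MYC and PVT1 locus.

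All 34 PC3 JUN regions were accessible (89.8 to 100, beside 96.0%) and 33 carried H3K27ac (97.1%, 85.1 to 99.5, beside 77.3%). FOSL1 regions overlapped JUN in 10 of 12 cases (83.3%, 55.2 to 95.3, beside 66.9%) and FOXA2 in 6 of 12 (25.4 to 74.6, beside 45.6%). In NCI-H660, all 25 JUN regions were accessible (86.7 to 100, beside 86.0%) and 10 overlapped FOXA2 (40.0%, 23.4 to 59.3, beside 23.2%). The highest JUN scores were 1404 at 119.0 kb, over an exon at an alternative start of PVT1, and 1384 at 172.6 kb, in a PVT1 intron with no FOXA2 region of the vehicle list. All 7 JUN regions that PC3 shared with NCI-H660 lay in the MYC and PVT1 locus.

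FOXA2, JUN and FOSL1 met at 7 places of PC3, all in the MYC and PVT1 locus. At 118.8 kb the scores were 907 for FOXA2, 1404 for JUN and 234 for FOSL1, the highest FOSL1 score in the loci. At 196.4 kb, where FOXA2 was strongest of the 7 (1803), JUN scored 809 and FOSL1 64. The place at 441.5 kb had 1669, 454 and 123. The order of the FOSL1 scores was thus not that of the FOXA2 scores. The remaining places had 789, 868 and 187 at 96.4 kb, 853, 326 and 35 at 116.6 kb, 1215, 845 and 60 at 579.0 kb, and 387, 288 and 58 at 432.3 kb, in each case for FOXA2, JUN and FOSL1 in that order. At 432.3 kb the FOXA2 and FOSL1 regions were joined only through the JUN region and did not overlap each other.

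Within 1 kb of an annotated start lay 2 of 29 PC3 and 3 of 17 NCI-H660 FOXA2 regions. The counts were 4 of 34 PC3 and 5 of 25 NCI-H660 JUN regions with siNC, and 1 of 12 PC3 FOSL1 regions. These shares have no whole-list value beside them. The MYC promoter was open in both lines (ATAC score 2031 in PC3 and 1873 in NCI-H660) and carried H3K27ac in PC3 (1276) and H3K4me2 in NCI-H660 (372). FOXA2 was called there in NCI-H660 (218 with vehicle, 238 with ORY-1001) but not in PC3 cells given vehicle or either inhibitor, while the 2 additional PC3 FOXA2 lists, which were longer, had regions there with scores of 238 and 145. Neither siNC JUN list had a region at the MYC promoter. At the several starts of PVT1, ATAC scores reached 6941 in PC3 and 4534 in NCI-H660. Vehicle FOXA2 scores there reached 907 in PC3 and 741 in NCI-H660, and siNC JUN scores 1404 and 191. FOSL1 reached 234 there in PC3 with siNC. The CCND1 promoter scored 1749 in PC3 ATAC and 181 in NCI-H660 ATAC, and the MYCL promoter 1214 and 768. The CCND2 promoter had no ATAC region in PC3, and in NCI-H660 one with a score of 62 beside an H3K4me2 region with a score of 386. The longest H3K27ac region of the 4 loci (3.05 kb) lay just past the start of MYC, and the next (2.85 kb, score 3935) at 75.2 kb in the body of PVT1.

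The inhibitor lists addressed whether FOXA2 stayed on these loci when LSD1 was inhibited. In PC3, the strongest FOXA2 regions of the loci were called again under both inhibitors, and most weak ones were not called. Scores of the strongest were lower with C12 and, for most of them, with ORY-1001. At -149.2 kb the score was 1889 with vehicle, 1560 with ORY-1001 and 944 with C12. At 579.2 kb the scores were 1215, 544 and 292, and at the CCND1 downstream region they were 684, 442 and 272. The regions at 441.6 kb (1669, 1769 and 869) and 118.7 kb (907, 1052 and 580), both among the strongest, exceeded their vehicle score under ORY-1001. No kept region reached its vehicle score with C12.

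Counted over the loci, 19 of 29 vehicle regions (65.5%, 47.3 to 80.1) were called with ORY-1001 beside 36.8% of the whole list, and 13 of 29 (44.8%, 28.4 to 62.5) with C12 beside 29.6%. The interval for C12 held the share of the whole list, and that for ORY-1001 did not. These intervals take each region as independent, although 26 of the 29 lay in the MYC and PVT1 locus. Of these 26, 18 were kept with ORY-1001 and 12 with C12. With the vehicle list and each inhibitor list cut to equal length by score, the shares were 85.0% beside 53.0% for ORY-1001 and 80.0% beside 61.2% for C12. The 2 inhibitors were given at different doses, so their values stand side by side without a comparison. All 13 regions kept with C12 were also kept with ORY-1001, 6 were kept with ORY-1001 alone, and 10 were called with neither. In the whole list these classes took 24.0%, 12.8% and 57.5%, and 5.63% were kept with C12 alone. The vehicle regions at 461.7 and 462.3 kb fell on a wider region in each inhibitor list (scores 373 and 255), so the 19 and 13 kept regions lay on 18 and 12 regions of those lists.

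Kept regions had higher vehicle scores than lost ones in the median, with ranges that overlapped. The median vehicle score was 684 for regions kept with ORY-1001 and 76.0 for those lost, and 872 against 116 for C12. Kept regions went down to 111 with ORY-1001 and 196 with C12, and lost ones up to 288 with each. Of the 12 loci regions with a score of 292 or more, which the top 25% of the vehicle list reached, all were kept under each inhibitor, beside 72.0% and 71.1% of such regions in the whole list. Of the other 17, 7 were kept with ORY-1001 and 1 with C12, beside 25.1% and 15.8%. The loci held more high-scoring regions than the list, and the part of this in the shares kept was not tested beyond these counts. The highest-scoring region lost under both inhibitors (288) lay at 7.1 kb, over the untranslated end of MYC.

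Scores at the kept regions fell in most cases. The ORY-1001 score divided by the vehicle score had a median of 0.703 over the 19 regions, and 17 were lower, beside a median of 0.632 and 78.9% lower in the whole list. For C12 the median was 0.409 with 13 of 13 lower, beside 0.429 and 91.4%. The inhibitor lists were also shorter than the vehicle list (13732 and 8352 regions), and the part of list depth in these scores was not tested. New regions were few: 2 of 20 with ORY-1001 and 2 of 14 with C12, beside 35.6% and 14.9%. The highest-scoring new one was the same in both, at 102.2 kb downstream of the MYCL start (130 and 86), in the noncoding gene ENSG00000284719, and it was present in both additional PC3 FOXA2 lists.

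**Figure D3:**
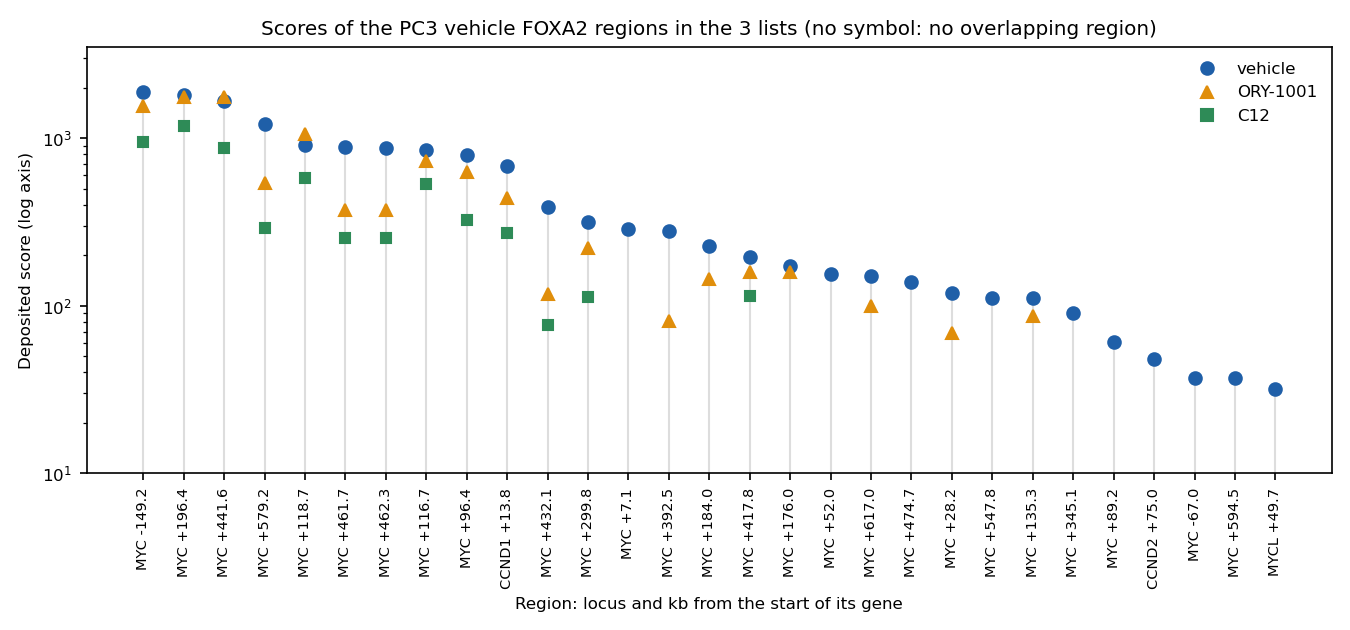
Score of each of the 29 PC3 vehicle FOXA2 regions of the 4 loci with vehicle, ORY-1001 and C12, on a log axis, ordered by vehicle score, with regions that were not called left out. The 12 regions from 316 upward have a point for every condition, and below that score C12 points are missing for all but 1 region.

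NCI-H660 lost fewer regions to ORY-1001. Of its 17 FOXA2 regions in the loci, 15 (88.2%, 65.7 to 96.7) were called with the inhibitor beside 68.4%, an interval that held the share of the whole list. The strongest, at 608.7 kb, scored 928 with vehicle and 1055 with ORY-1001. Of the 15 kept regions, 8 had a lower score, and the median ratio was 0.926 beside 0.982. The lost regions were those at 156.7 kb in PVT1 (95) and at 85.0 kb from MYCL (26). The list had 1 new region, beside 29.1%, at 595.9 kb (197).

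The siFOXA2 lists addressed whether AP-1 binding at these loci needed FOXA2. In PC3 most JUN regions and every FOSL1 region of the control list were no longer called, which was also the case over the genome. JUN was kept at 6 of 34 regions (17.6%, 8.35 to 33.5) beside 13.4% for the whole list, and with lists cut to equal length by score at 38.5% beside 47.4%, so the loci were not set apart from the list. All 6 lay in the MYC and PVT1 locus, and all had lower scores after siFOXA2, with a median ratio of 0.170 beside 0.277. The strongest, at 119.0 kb, went from 1404 to 240, the one at 172.6 kb from 1384 to 368 and the one at 96.4 kb from 868 to 146. The others, at 74.6, 176.1 and 441.5 kb, went from 294 to 54, from 546 to 52 and from 454 to 35. The highest-scoring region lost was that at 579.2 kb (845). FOSL1 was kept at 0 of 12 regions (0 to 24.2) beside 6.90%, and the strongest of these scored 234 at 118.9 kb. All 3 FOSL1 regions that the loci held after siFOXA2 were new, beside 81.5%, and each had a score of 13, the lowest of that list; 1 of them lay at -86.3 kb from CCND1. JUN gained 1 region in the loci, beside 21.5% new in its list.

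Whether a PC3 JUN region overlapped a FOXA2 region could not be tied to its loss with these numbers. JUN was kept at 4 of 20 regions with FOXA2 (20.0%, 8.07 to 41.6) and at 2 of 14 without it (14.3%, 4.01 to 39.9). In the whole list the shares were 18.3% and 9.42%. Of the 7 places with FOXA2, JUN and FOSL1, JUN was called after siFOXA2 at 3 (scores 146, 240 and 35) and FOSL1 at none. After siFOXA2 the whole JUN list was 0.171 times and the loci 0.206 times as long as with siNC.

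In NCI-H660 the JUN list moved the other way. The loci held 25 JUN regions with siNC and 102 with siFOXA2, and the whole lists 18401 and 59452. JUN was kept at 19 of the 25 (76.0%, 56.6 to 88.5) beside 48.0%, and 13 of the 19 had a lower score (median ratio 0.724 beside 0.822). The strongest, at 441.5 kb, went from 1048 to 179. It was kept at 6 of 10 regions with FOXA2 and at 13 of 15 without it (60.0%, 31.3 to 83.2, and 86.7%, 62.1 to 96.3), beside 42.4% and 49.7%, and these intervals overlapped. The highest score among the lost regions was 112, shared by one at 429.3 kb, where FOXA2 was also called, and one at 489.5 kb, where it was not.

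The 83 new JUN regions of NCI-H660 after siFOXA2 were weak and mostly outside open chromatin. They made up most of the siFOXA2 regions in the loci, beside 85.2% new in the whole list. Scores ran from 14 to 127 with a median of 39, and the highest lay at 59.0 kb, at the start of PVT1. Of the 83, 14 (16.9%, 10.3 to 26.3) were accessible in NCI-H660 beside 21.1% of all new regions. An AP-1 match stood in 5 of them and a forkhead match in 13, beside 1801 and 7934 of all 50633 new regions. JUN regions of PC3 overlapped 3 of the 83 (3.61%), beside 1.48%. Most were in the MYC and PVT1 locus, where the JUN count went from 20 to 86.

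**Figure D4:**
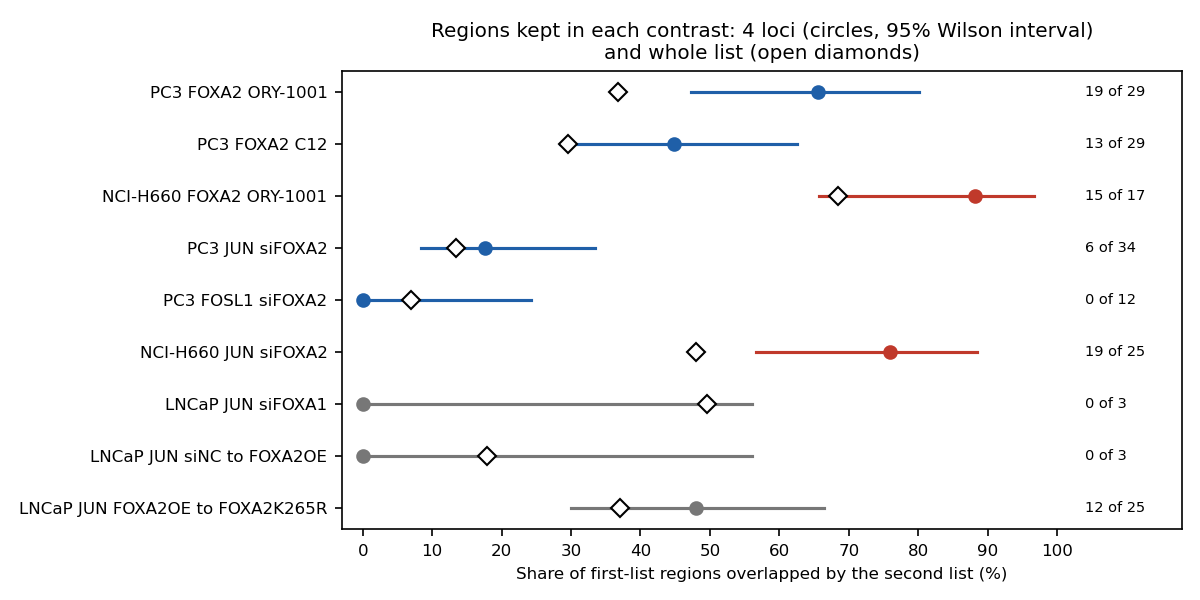
Share of control regions kept in the second list for each comparison, in the 4 loci (points with Wilson 95% intervals) and in the whole list, in percent. The interval of the loci lies above the whole-list value for PC3 FOXA2 with ORY-1001 and for NCI-H660 JUN after siFOXA2 and holds it in the other comparisons, and the widest intervals are those of LNCaP with 3 control regions.

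LNCaP cells with siNC had 3 JUN regions in the loci, at 55.1 and 96.4 kb from MYC and downstream of CCND1, and none of them was called after siFOXA1, beside 49.6% kept in the whole list. The siFOXA1 list also had 3, all new beside 38.6%, the strongest (72) at 119.0 kb in PVT1. The FOXA2OE line kept none of the 3, beside 17.9%, and had 25 JUN regions, all of them new, beside 98.2%, spread as 9 at MYC and PVT1, 9 at MYCL, 2 at CCND1 and 5 at CCND2. The highest-scoring new one (124) lay at 118.8 kb, the place where PC3 JUN was strongest. An AP-1 match stood in 0 of the 25 (0 to 13.3), beside 2.38% of the whole list. In the whole siNC list the share was 25.4%. PC3 ATAC overlapped 7 of the 25 (28.0%, beside 29.6%) and NCI-H660 ATAC 5 (20.0%, beside 26.9%), with no ATAC list of LNCaP at hand. The FOXA2K265R line had 56 JUN regions, and 12 of the 25 of the FOXA2 line (48.0%, 30.0 to 66.5) were among the places called, beside 37.0%, a share that fell to 16.0% beside 25.2% with lists of equal length. The region at 118.8 kb scored 198 in it. Of its 56 regions, 44 were new, beside 81.3%, and the strongest of these (454) lay upstream of MYCL, at -98.2 kb. The whole JUN lists of the siNC, FOXA2OE and FOXA2K265R cells held 2421, 23994 and 47505 regions. The FOXA2OE list was 8.33 times as long as that of siNC in the loci and 9.91 times as a whole. From FOXA2OE to FOXA2K265R these values were 2.24 and 1.98, so the counts in the loci moved with list size. The siNC, FOXA2OE and FOXA2K265R lists carry different folder names in the files, and the label of the mutant allows another library kit, and these cannot be told apart from the lines.

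The FOXA2 list of the FOXA2OE line had a region in the 4 loci at 1 place only, the same -98.2 kb place (16.1% of gene windows held a region of that list). With NCI-H660 FOXA2 (59 with vehicle, 148 with ORY-1001), PC3 FOSL1 with siNC (49), PC3 JUN after siFOXA2 (36, new) and JUN of the FOXA2K265R line, this place was called in 6 of the 18 factor lists. It was accessible and carried the mark measured in both PC3 and NCI-H660. It lay between the protein-coding genes MFSD2A and CAP1.

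At MYCL the FOXA2 regions differed between the lines. PC3 had 1, of score 32, over a coding exon of TRIT1, and it was lost with both inhibitors. NCI-H660 had 4, with vehicle scores of 26, 96, 165 and 59. The strongest (165, and 129 with ORY-1001) lay in an intron of MFSD2A and overlapped a JUN region of score 87. The one at 9.6 kb (96 with vehicle, 207 with ORY-1001) lay between genes, just past the end of MYCL, and its sequence held 3 forkhead matches. JUN regions were also few: PC3 had 1 with siNC, of score 162, at -113.1 kb, and NCI-H660 had 4, the strongest (272) in an intron of BMP8B. After siFOXA2 NCI-H660 had 13.

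CCND1 had 1 FOXA2 region in PC3 and none in NCI-H660. It lay at 13.8 kb from the CCND1 start, just downstream of the gene in an intron of LTO1, and was open in both lines. This place was called in 8 of the 18 factor lists, among them PC3 JUN with siNC (233), LNCaP JUN with siNC and JUN of the FOXA2K265R line (108), but not PC3 JUN after siFOXA2. PC3 had another 2 JUN regions, of score 276 at -180.4 kb and of score 90 at 184.4 kb, and none of the 3 was called after siFOXA2. NCI-H660 had no JUN region with siNC. Open chromatin fell in the same order, with 69 ATAC regions in PC3 and 10 in NCI-H660.

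CCND2 had the fewest ATAC and mark regions of the 4 loci. PC3 had 1 FOXA2 region, of score 48, in an intron of TIGAR, which was neither accessible nor acetylated, was lost with both inhibitors and was the only 1 of the 29 that neither additional FOXA2 list of PC3 held. PC3 had no JUN or FOSL1 region with siNC. NCI-H660 had 1 JUN region, in an intron of CCND2 itself, at 7.4 kb, which scored 214 with siNC and 155 with siFOXA2. It was accessible but had no H3K4me2 region, and its sequence held no match to either motif.

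**Figure D5:**
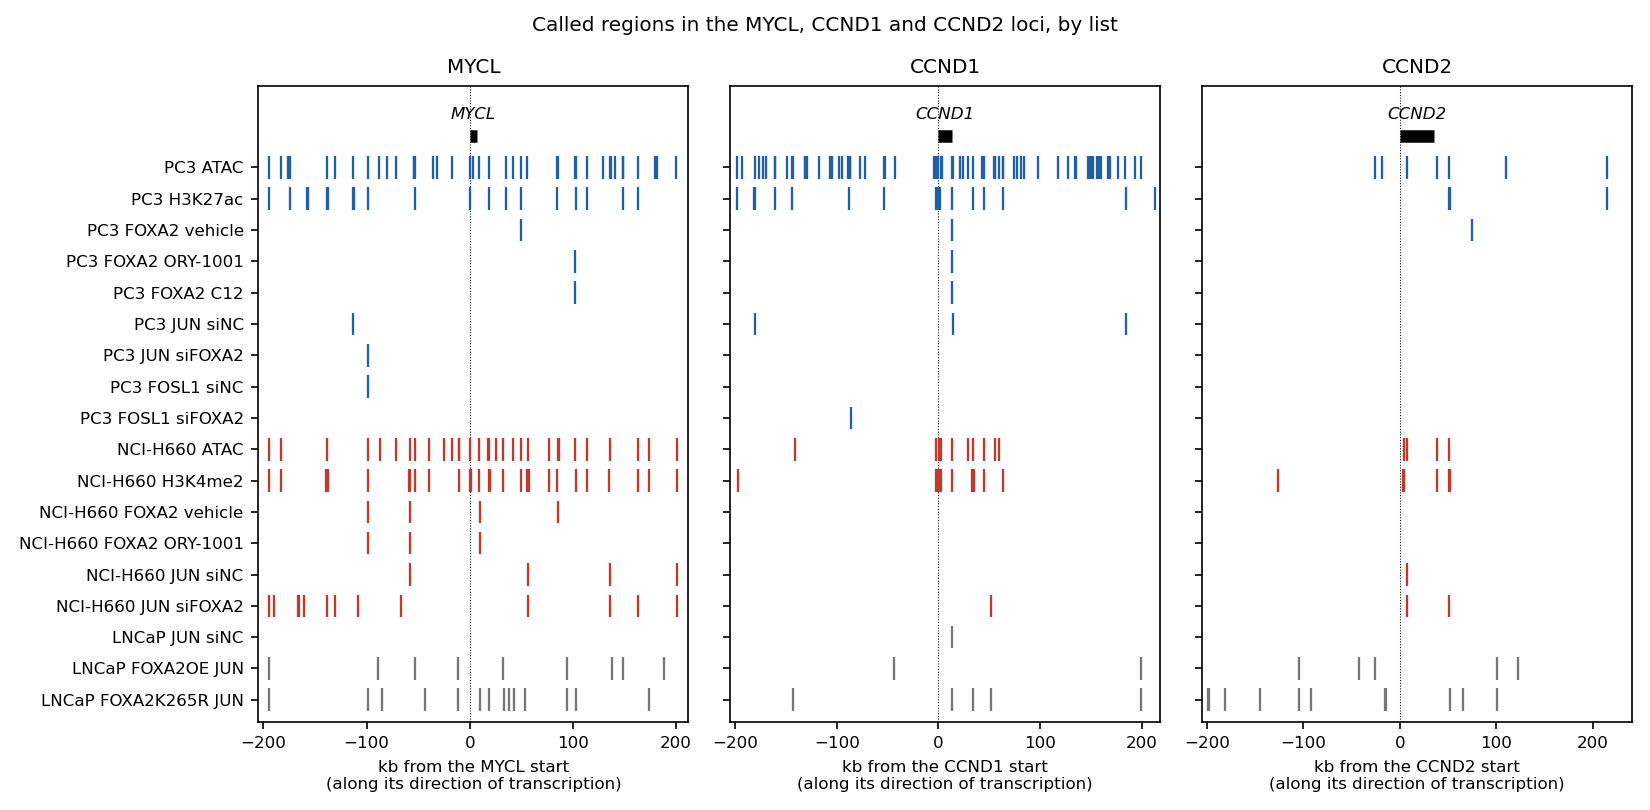
Maps of the MYCL, CCND1 and CCND2 loci, with the distance from the start of the gene in kb and a row of marks for each of 18 lists, without the additional FOXA2 lists of PC3, LNCaP JUN after siFOXA1 and LNCaP FOXA2. Each mark is a region, in blue for PC3, red for NCI-H660 and grey for LNCaP. ATAC marks are many at CCND1 in PC3 (69) and few in NCI-H660 (10), and none of the FOXA2 rows drawn has more than 4 marks in a locus.

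In the vehicle FOXA2 and siNC JUN lists of PC3 and NCI-H660, the motif shares in the loci had intervals that held the shares of the whole lists. The forkhead match stood in 22 of 29 PC3 FOXA2 regions (75.9%, 57.9 to 87.8, beside 77.3%) and in 13 of 17 of NCI-H660 (76.5%, 52.7 to 90.4, beside 75.9%), counted within 100 bp on either side of the centre. The AP-1 match stood in 14 of 34 PC3 JUN regions (41.2%, 26.4 to 57.8, beside 49.5%) and in 1 of 25 NCI-H660 JUN regions (4.00%, 0.710 to 19.5, beside 13.8%). For FOXA2 regions the AP-1 counts were 10 of 29 in PC3 (34.5%, 19.9 to 52.7, beside 26.4%) and 1 of 17 in NCI-H660 (5.88%, beside 6.30%). Among the other FOXA2 and JUN lists, the AP-1 intervals of PC3 FOXA2 with C12 and of LNCaP JUN after siFOXA1 lay above their whole-list shares. A match is a description of the letters and not a measured site.

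Other genes of the cell cycle entry and MYC network pathways gave a frame for these loci. They were 27 genes, among them cyclins, CDKs, their inhibitors, RB and E2F family members and partners of MYC. With windows of the same kind, 25 of the 27 held a FOXA2 region in PC3 (85.8% of protein-coding genes) and 17 in NCI-H660 (71.1%). JUN was present in 24 windows in PC3 (89.6%) and 25 in NCI-H660 (89.2%), and FOSL1 in 11 (40.0%). FOXA2 regions were more numerous in PC3 for 18 of the 27 and in NCI-H660 for 2, beside 61.4% and 20.1% of genes. CDK6, the D-type cyclin partner kinase, had 18 in PC3 and 2 in NCI-H660. CCND3, the remaining D-type cyclin, had 10 and 0, and RB1, which encodes the retinoblastoma protein, 12 and 0. MAX, the obligate partner of MYC, had 9 and 6, with 6 FOSL1 regions, and MYCN had none in either line. CDKN1C and MLX, the 2 with more FOXA2 regions in NCI-H660, each had 1 and 2. A FOXA2 region was present in PC3 alone for 8 of the 27, beside 4392 of 20163 genes. JUN regions were more numerous in PC3 for 11 of the 27 and in NCI-H660 for 10, beside 45.9% and 39.8%.

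In these 27 windows ORY-1001 kept 54 of 127 PC3 FOXA2 regions (42.5%, 34.3 to 51.2, beside 36.8%) and C12 kept 45 (35.4%, 27.7 to 44.1, beside 29.6%). In NCI-H660 ORY-1001 kept 21 of 37 (56.8%, 40.9 to 71.3, beside 68.4%). JUN after siFOXA2 was kept at 18 of 137 regions in PC3 (13.1%, 8.48 to 19.8, beside 13.4%) and at 78 of 132 in NCI-H660 (59.1%, 50.6 to 67.1, beside 48.0%). FOSL1 was kept at 0 of 17 (0 to 18.4, beside 6.90%).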

How the data were processed

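Peak lists of 22 samples in 21 groups were used, each from the labels' own line, target and treatment. Per the methods, the authors aligned 51 nt paired-end reads to hg19 with BWA 0.7.17-r1188, converted them with SAMtools 1.9 and called regions with MACS2 2.1.4. The control libraries, the MACS2 settings, any pooling and any shift of ATAC reads are not given in the sources used here. The deposited files give intervals and, in 20 lists, a score, which was read as MACS2's 10 times −log10 q; the other 2 lists, both of LNCaP, are intervals only. No read counts were given, so depth is unknown.

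Gene bodies came from GENCODE release 44 on GRCh37. Regions sharing at least 1 bp were called overlapping, and a control region was kept if the second list overlapped it. Shares carry Wilson 95% intervals, which cover counting error only and take regions as independent, and stand beside the same share of the whole list. A promoter was 1 kb on either side of an annotated start. Sequences were read from the GRCh37 reference, and 1 of them and 1 marker gene are not reported here. Merging all factor lists gave 225 places. Named regions were every vehicle FOXA2 region of a locus with at most 12 in a line, otherwise the 5 highest scores of each line, in each of 9 comparisons the kept, the lost and the new region of highest score, regions at gene starts, places with FOXA2, JUN and FOSL1, and FOXA2 regions shared by PC3 and NCI-H660; others were chosen after their values were seen. The genes and lists were chosen with earlier results of these data known. Alternatives were flanks of 100 kb, 50% reciprocal overlap, a score of at least 50, lists cut to equal length, the additional FOXA2 lists, a motif window of 250 bp, places called in at least 17 lists left out and the MYC and PVT1 locus left out. Overlap counting was tested on simulated intervals. Python 3.11.15, pandas 2.3.3, numpy 2.4.6 and matplotlib 3.10.9 were used.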

Additional observations from a re-analysis of the deposited data

Results flagged for a closer look

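The number of JUN regions in the 4 loci moved in opposite directions after siFOXA2 in the 2 lines. The siFOXA2 list held 0.206 times as many regions in the loci as the siNC list in PC3 (7 against 34) and 4.08 times as many in NCI-H660 (102 against 25). With 1 list in each group the difference between the lines was not tested, and the JUN lists of the 2 lines carry different folder names. The whole lists went the same ways, from 23890 to 4081 regions in PC3 and from 18401 to 59452 in NCI-H660, so the loci followed their lists.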

How the results depend on the processing

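Of 116 values recomputed under another setting, 93 stayed within the 95% interval of the reported share and 23 did not. All 25 with flanks of 100 kb stayed within it. The 20 without widely shared places could not change, because the loci held no such place, and they are counted among the 93. Requiring overlap of 50% of both regions lowered PC3 ATAC sharing to 13.1%, H3K27ac and accessibility at PC3 FOXA2 regions to 3.45% and 44.8% (whole list 5.14% and 70.0%), JUN, H3K4me2 and accessibility at NCI-H660 FOXA2 regions to 35.3%, 5.88% and 23.5% (whole list 25.0%, 12.4% and 31.2%), and JUN kept from FOXA2OE to FOXA2K265R to 28.0%. For the histone marks this rule cannot judge co-occupancy, because their regions were much wider than those of FOXA2. With scores of at least 50, ATAC sharing was 32.4% and the FOXA2K265R share 14.3%. With lists of equal length, 85.0% of PC3 FOXA2 regions were kept with ORY-1001 (whole list 53.0%), 80.0% with C12 (61.2%), 38.5% of PC3 JUN regions with siFOXA2 (47.4%) and 16.0% in the FOXA2K265R line (25.2%), so the loci stood below the list in the last 2. The first additional PC3 FOXA2 list gave 37.3% with JUN (whole list 20.6%), 59.7% with H3K27ac (41.9%) and 71.6% accessible (64.0%), and the second 47.3% with JUN (23.6%). Without the MYC and PVT1 locus, no FOXA2 (0 of 3) or JUN region (0 of 4) of PC3 was shared with NCI-H660, 33.3% of FOXA2 regions were kept with ORY-1001 and 0 of 4 JUN regions with siFOXA2. In a window of 250 bp, forkhead matches rose to 93.1% of PC3 FOXA2 regions and AP-1 matches to 20.0% of NCI-H660 JUN regions, as a longer window must hold at least as many. For the remaining changes the cause was not tested. No paired analysis was possible because the labels give no replicate numbers and each group compared had 1 list.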
